A study of Mus musculus with 192 samples.

Results

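The clustered histone genes were the 67 protein-coding mouse genes whose symbols start with Hist1, Hist2, Hist3 or Hist4, of 22208 protein-coding genes on the 19 autosomes and chromosome X. They were chosen by symbol from GENCODE models of the mm9 build, with no measured value. Of the 67 genes, 55 belong to Hist1 on chromosome 13, 9 to Hist2 on chromosome 3, 2 to Hist3 on chromosome 11 and 1 to Hist4 on chromosome 6. By the protein they encode, 6 are H1, 19 H2A, 18 H2B, 11 H3 and 13 H4 genes.

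The accessible chromatin was measured by Pi-ATAC, in which fixed cells are cut by the Tn5 transposase in bulk, stained with antibodies and index-sorted, so that the protein staining of each cell is recorded with its open DNA. The experiment tested the sorting on 4T1 cells (a breast cancer line of the mouse) combined with splenocytes. The latter were isolated from the spleen of an MMTV-PyMT animal, a transgenic model in which a mammary tumour virus promoter drives a viral oncogene, which was free of tumour when used. By sample title, 96 cells were 4T1 cells sorted by EpCAM and 96 were splenocytes sorted by CD45. 1 sample titled as a 4T1 cell carries the source name of the splenocytes, so that source names give 95 and 97 cells. Both groups shared the mixing at equal numbers, the fixation and the transposition. The 4T1 cells are 1 cultured line, and the splenocytes are a mixture of white blood cells. The values were 50000 windows of 500 bp centred on peak summits, in 1 list without scores or counts, read as both groups pooled. The list therefore counted as 1 sample, with no replicates and no test, and whether a window came from 4T1 cells or from splenocytes cannot be told apart. As a limited check of the cell types, 4 of 4 epithelial marker genes (Epcam, Krt8, Krt18 and Cdh1) had a window within 1 kb of a start. The share over all protein-coding genes was 48.3%. Of the leukocyte genes, Cd79a and Cd3e had 1 window each, while Ptprc, which encodes CD45, had none within 1 kb of a start.

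Histones are the proteins that package DNA. H2A, H2B, H3 and H4 form the core of the nucleosome, and H1 binds the linker DNA between nucleosomes. The clustered genes are transcribed mainly in S phase, when new DNA has to be packaged, at a nuclear body organised by NPAT. Most have no introns, and their messages end in a conserved stem-loop bound by SLBP instead of a poly(A) tail. Many H2A and H2B genes stand head to head and share the DNA between their starts.

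The gene models matched this description: 60 of the 67 genes had 1 exon, and 60 held a stem-loop of 16 bases within 100 bases after the stop codon, 21 to 58 bases past it (median 31). The commonest form, with both arms of the stem in capitals, is shown because it marks this class of messages, and it was found in 36 genes.

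stem-loop: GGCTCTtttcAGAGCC

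The 7 genes without a stem-loop by this search were Hist1h2an, Hist1h2bp, Hist1h2bq, Hist1h2br, Hist1h2al, Hist2h2be and Hist2h2bb. The search began at the outermost annotated coding end of each gene. Hist1h2bp, Hist1h2bq, Hist1h2br and Hist2h2bb have several exons, so a stem-loop after an inner stop codon would be missed there. A window within 1 kb of a start was found at 39 of the 60 genes with a stem-loop and at 3 of the 7 without.

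The regions before the starts are shown first, because the windows described below are counted around them. They were read from the mm9 genome, 5′ to 3′, and capitals mark the words searched, on either strand and within the printed stretch: TATAAA (the TATA box), CCAAT (bound by NF-Y), ATTTGCAT (the octamer bound by OCT1), TTTNNCGC (an E2F-like word), GGGCGG (the GC box), GGTCCG (part of the H4 element bound by HINFP) and AAACACA (the AC box of H1 genes). The reverse complement of GGTCCG can overlap CCAAT by its last bases. The first 4 lines are the DNA between head-to-head H2A and H2B starts, on the plus strand. Windows lay at the first pair (chr13:23663090-23663264) and at the second (chr3:96024804-96025043), and none within 1 kb of the starts of the third (chr13:21845777-21845991) or of the fourth (chr13:21902054-21902235).

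Hist1h2ae-Hist1h2bg: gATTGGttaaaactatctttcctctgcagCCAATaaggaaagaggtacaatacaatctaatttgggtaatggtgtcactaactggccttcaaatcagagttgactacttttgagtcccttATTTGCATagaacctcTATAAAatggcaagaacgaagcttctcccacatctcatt
Hist2h2ac-Hist2h2be: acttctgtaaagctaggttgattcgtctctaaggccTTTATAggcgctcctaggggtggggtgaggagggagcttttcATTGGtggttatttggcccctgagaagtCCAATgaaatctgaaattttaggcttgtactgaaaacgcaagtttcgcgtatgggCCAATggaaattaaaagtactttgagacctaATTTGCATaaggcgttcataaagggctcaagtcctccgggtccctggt
Hist1h2ak-Hist1h2bn: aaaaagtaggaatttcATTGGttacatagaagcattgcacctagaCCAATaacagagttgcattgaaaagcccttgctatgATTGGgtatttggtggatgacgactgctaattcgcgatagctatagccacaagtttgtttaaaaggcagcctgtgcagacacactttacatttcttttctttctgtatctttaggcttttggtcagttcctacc
Hist1h2bq-Hist1h2ao: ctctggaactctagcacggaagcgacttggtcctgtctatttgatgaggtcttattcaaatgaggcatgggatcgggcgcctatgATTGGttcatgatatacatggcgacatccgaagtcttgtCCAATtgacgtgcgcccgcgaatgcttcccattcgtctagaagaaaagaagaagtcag

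The next lines are the 150 bases before the start of an H4, an H1 and an H3 gene with a window, each followed by a gene of the same type without one. They are Hist1h4d (chr13:23673317-23673466, plus strand) and Hist1h4c (chr13:23790324-23790473, minus strand), Hist1h1c (chr13:23830526-23830675, plus strand) and Hist1h1t (chr13:23787530-23787679, plus strand), and Hist1h3i (chr13:21875267-21875416, minus strand) and Hist1h3g (chr13:23627141-23627290, plus strand). The H4 element stands in both H4 genes and the AC box in both H1 genes, with and without a window.

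Hist1h4d: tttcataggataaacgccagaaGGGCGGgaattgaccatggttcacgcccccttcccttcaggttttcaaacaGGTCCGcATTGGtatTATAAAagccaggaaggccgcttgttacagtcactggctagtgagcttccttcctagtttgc
Hist1h4c: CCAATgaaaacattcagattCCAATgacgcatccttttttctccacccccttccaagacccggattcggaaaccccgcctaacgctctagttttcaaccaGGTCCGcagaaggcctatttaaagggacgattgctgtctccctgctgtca
Hist1h1c: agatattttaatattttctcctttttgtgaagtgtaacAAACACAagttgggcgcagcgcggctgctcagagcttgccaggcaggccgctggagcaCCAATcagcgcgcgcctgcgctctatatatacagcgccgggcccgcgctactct
Hist1h1t: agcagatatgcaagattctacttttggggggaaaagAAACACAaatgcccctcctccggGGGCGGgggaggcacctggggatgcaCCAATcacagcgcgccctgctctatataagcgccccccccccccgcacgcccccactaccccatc
Hist1h3i: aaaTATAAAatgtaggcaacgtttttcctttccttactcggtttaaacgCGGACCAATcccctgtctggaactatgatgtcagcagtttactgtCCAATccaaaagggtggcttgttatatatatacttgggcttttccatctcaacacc
Hist1h3g: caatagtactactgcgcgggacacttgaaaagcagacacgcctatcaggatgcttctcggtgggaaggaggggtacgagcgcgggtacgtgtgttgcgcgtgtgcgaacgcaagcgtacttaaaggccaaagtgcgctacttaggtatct

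A window overlapped the region within 1 kb of a transcript start at 42 of the 67 histone genes (62.7%), against 48.3% of all protein-coding genes. With each window given to its nearest histone start alone, the count was 36 genes (53.7%). No window was counted at 25 genes, 1 at 14, 2 at 15, 3 at 8, 4 at 3 and 5 at 2 genes. The median was 1 window per histone gene (mean 1.34) and 0 per gene over all genes (mean 0.873). In 2 families of highly expressed and of developmental genes the share was 84.3% (70 of 83 cytosolic ribosomal protein genes) and 33.3% (13 of 39 Hox genes), so that the histone genes lay between both. These shares have no replicate error, and their differences were not tested.

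**Figure D1:**
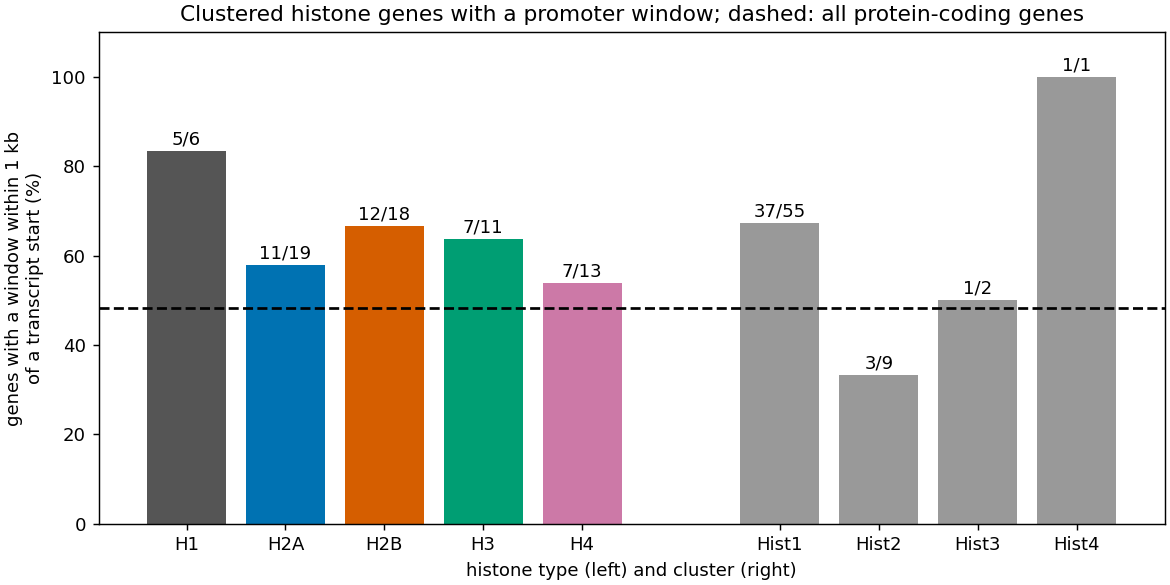
Percent of clustered histone genes with a window within 1 kb of a transcript start, by histone type (left bars) and by cluster (right bars), with the number of genes above each bar; the dashed line is the 48.3% of all protein-coding genes. All 5 types lie above the line, between 53.8% for H4 and 83.3% for H1, and Hist2 lies below it at 33.3%.

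H1 genes encode the linker histones, and 5 of 6 had a promoter window (83.3%). Hist1h1b had 3 windows, with summits 20, 558 and 998 bp downstream of its start. Hist1h1d had summits 293 and 1074 bp downstream, and Hist1h1e had summits 81 and 578 bp downstream. Hist1h1c and Hist1h1a had 1 window each, 115 and 298 bp downstream. All of these summits lay downstream of the start. Hist1h1t, the testis-specific H1, had no window within 1 kb, and the summit nearest to its start was 5454 bp away.

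H2A genes had a promoter window in 11 of 19 cases (57.9%) and H2B genes in 12 of 18 (66.7%). Hist1h2bl, an H2B gene, had 4 windows with summits at -345, 27, 384 and 1084 bp, where negative values lie upstream of the start. Its head-to-head neighbour Hist1h2ai, an H2A gene 269 bp away, also had 4 windows, at -653, -296, 76 and 1233 bp. Of these windows, 3 lay within 1 kb of both starts and were counted for both genes. Hist1h2ah had 3 windows with summits at -1146, -348 and 28 bp, and its partner Hist1h2bk had 3 at -206, 170 and 968 bp. The H2B gene Hist1h2be also counted 3 windows, at -800, 209 and 1085 bp, but its annotated start lies 35.1 kb from its start codon, beside Hist1h1e, and these windows are those of that neighbourhood. A separate window, counted for no start, had its summit in the coding sequence of Hist1h2be, 36 bp past the start codon. Hist1h2ae and Hist1h2bg, whose shared sequence is printed above, had 2 windows, with summits 81 and 57 bp inside the respective genes. In the other H2A genes of Hist1 with a window, the nearest summit lay at -13 bp for Hist1h2ad, 98 bp for Hist1h2ab, -135 bp for Hist1h2an, -211 bp for Hist1h2ag and -292 bp for Hist1h2ac. In the other H2B genes of Hist1 it lay at 9 bp for Hist1h2bh, 41 bp for Hist1h2bc, -54 bp for Hist1h2bj, 77 bp for Hist1h2bb, -108 bp for Hist1h2bp, -172 bp for Hist1h2bf and 258 bp for Hist1h2bm. The H2A and H2B summits thus lay on either side of the start, unlike those of the H1 genes, a difference that was not tested. Many H2A and H2B genes stand head to head, where 1 window counts for both starts, and no H1 gene does. The summit of Hist1h2ac at -292 bp is that of Hist1h2bc at 41 bp, and that of Hist1h2bf at -172 bp is that of Hist1h2ad at -13 bp.

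H3 genes had a promoter window in 7 of 11 cases (63.6%). The nearest summits lay farther from the starts in a count that includes windows at neighbouring genes. Hist1h3a had 3 windows with summits 45, 374 and 1008 bp downstream, Hist1h3h had summits at -1140 and 17 bp, and Hist1h3i had 1 summit at 104 bp. At the other 4 H3 genes with a window, the nearest summit lay upstream by more than 250 bp, at -417 bp for Hist1h3e, -702 bp for Hist1h3f, -839 bp for Hist1h3c and -1081 bp for Hist1h3b. The window of Hist1h3f had its summit 9 bp past the start of Hist1h2bh, the next gene. Those of Hist1h3c lay at -293 and 77 bp from the start of Hist1h2bb. That of Hist1h3b lay 98 bp past the start of Hist1h2ab. When each window was given to its nearest histone start alone, Hist1h3f, Hist1h3c and Hist1h3b kept none. Under that rule 4 H3 genes kept a window, against 5 H1, 9 H2A, 11 H2B and 7 H4 genes.

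H4 genes had a promoter window in 7 of 13 cases (53.8%). Hist1h4i had 3 windows, with summits at -1187, -100 and 122 bp, and Hist1h4a had 3, at -1111, -782 and -148 bp. Hist1h4j had summits at -690 and 64 bp. Hist1h4d and Hist1h4k had 1 summit each close to the start, at 15 and 79 bp, and that of Hist1h4b lay 361 bp downstream. These genes encode the same core histone from separate places in the cluster.

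A summit within 250 bp of a start was found at 32 of the 67 genes (47.8%), against 40.8% of all protein-coding genes. By type these were 3 of 6 H1, 10 of 19 H2A, 11 of 18 H2B, 3 of 11 H3 and 5 of 13 H4 genes. Over the 42 genes with a window, the summit nearest to the start lay at a median distance of 99 bp (87 bp over the 10724 protein-coding genes with a window), downstream in 26 genes and upstream in 16. The median distance was 72.5 bp for H2B, 81 bp for H2A, 100 bp for H4, 115 bp for H1 and 417 bp for H3. The H3 value includes Hist1h3f, Hist1h3c and Hist1h3b, whose windows lay nearest to the starts of neighbouring H2A or H2B genes. With 5 to 12 genes per type and windows shared between neighbours, the order of the types was not tested.

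**Figure D2:**
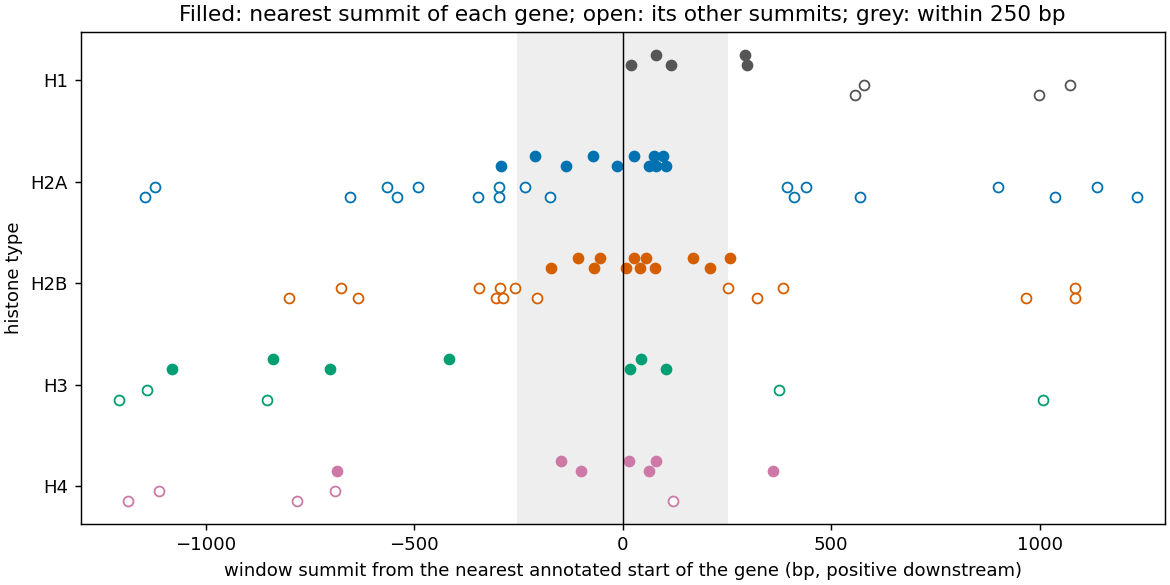
Distance of each window summit from the nearest annotated start of the histone gene it was counted for, in bp along the gene (positive downstream), by histone type; filled points are the nearest summit of each gene and open points its other summits. The filled points of H2A and H2B lie at most 292 bp from the start, those of the 5 H1 genes downstream of it, and those of 4 of the 7 H3 genes 417 bp or more upstream. Of these, the windows of Hist1h3f, Hist1h3c and Hist1h3b lie nearest to the start of a neighbouring H2A or H2B gene.

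The windows were shared. The 42 genes were reached by 57 distinct windows, from 38 peak calls, of which 29 lay within 1 kb of 1 histone gene, 23 of 2 genes and 5 of 3 genes. The summit lay inside a histone coding sequence in 30 of the 57 windows (52.6%). A call with several summits was the source of 34 windows (59.6%), against 33.0% of all 17929 promoter windows. Counted by gene, 24 of 67 histone genes (35.8%) had a window of such a call, against 13.1% of all protein-coding genes. The difference was not tested.

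Divergent pairs, whose starts face away from each other within 1 kb, numbered 13. Of these, 12 joined an H2A with an H2B gene, and 1 joined Hist1h2bh with Hist1h3f. The starts were 176 to 693 bp apart (median 241). A window lay within 1 kb of both starts in 9 pairs, and a summit fell between the starts in 4 of them. At Hist1h2an and Hist1h2bp, 290 bp apart, the nearest summit lay 10 bp from the midpoint, whereas at Hist1h2ae and Hist1h2bg, 176 bp apart, summits lay on either side, at -169 and 145 bp from the midpoint and inside the genes. At Hist2h2ac and Hist2h2be, 241 bp apart, 5 summits lay at -1156, -514, -184, 52 and 444 bp. The 4 pairs without a window were Hist1h2ak with Hist1h2bn, Hist1h2bq with Hist1h2ao, Hist1h2ap with Hist1h2br, and the testis pair Hist1h2ba with Hist1h2aa. Of the genes in pairs, 18 of 26 had a window (69.2%), and of the others 24 of 41 (58.5%).

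**Figure D3:**
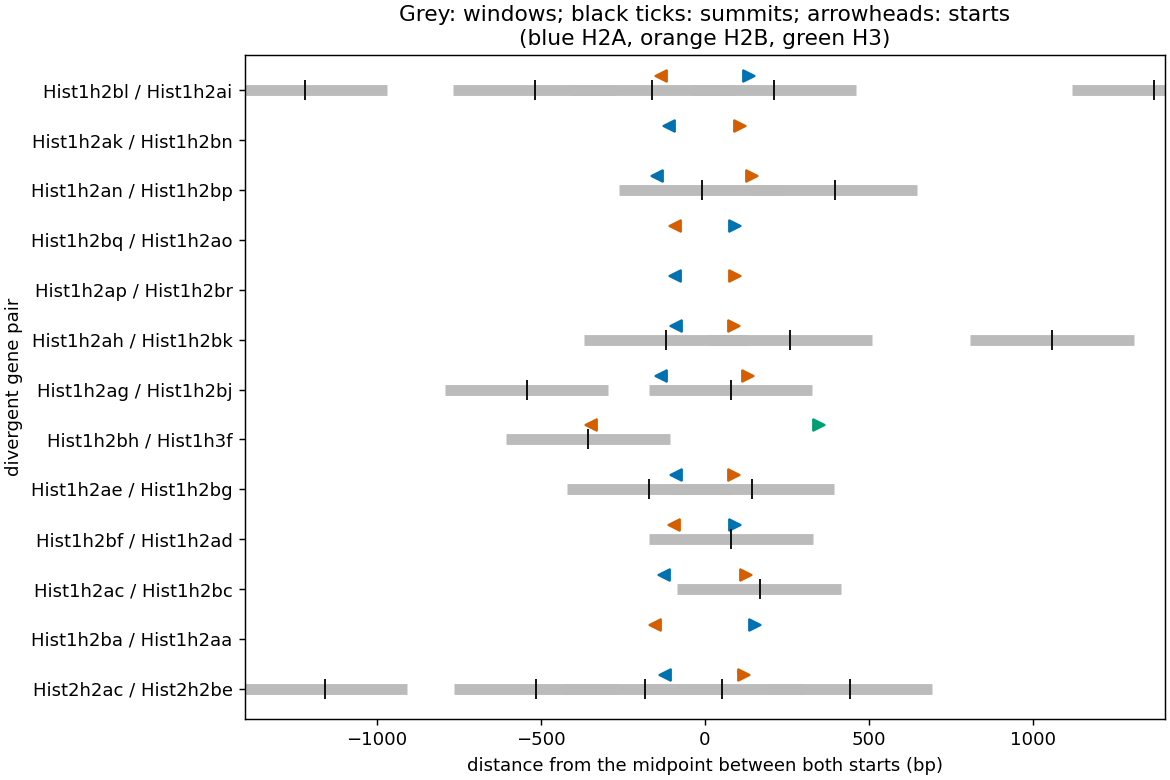
Windows (grey bars) and summits (black ticks) at the 13 divergent histone gene pairs, in bp from the midpoint between both starts; arrowheads mark the starts and the direction of each gene. 9 pairs carry windows over or beside the shared DNA, and 4 pairs have none within the range drawn.

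By position, Hist1 falls into 3 groups. The first (chr13:21807632-22135545) had a promoter window at 15 of 23 genes (65.2%), and the second (chr13:23622919-24026720) at 22 of 31 (71.0%). The third is Hist1h2al alone, an H2A gene starting at position 51298434 of chromosome 13, with no window. Other protein-coding genes of chromosome 13 had a promoter window in 45.5% of 803 cases. With 1 kb added on either side of these spans, the first group held 41 windows, or 124 per Mb, and the second 28, or 69.0 per Mb, against 18.9 per Mb over the listed chromosomes. Of the 41 windows of the first group, 23 lay at histone starts, 4 at other promoters and 14 elsewhere, and of the 28 of the second group, 24 lay at histone starts and 4 elsewhere. The other protein-coding genes inside the clusters had a promoter window in 4 of 11 cases (36.4%). Zfp184, Prss16, Gm17658 and Trim17 had one, while Hfe, Pom121l2, Trim38 and the transporter genes Slc17a1 to Slc17a4 had none. These counts hold windows that were also counted at histone starts. In the second group 1 of 7 such genes had a promoter window, yet no window there lay at other promoters alone. In Hist3, summits of windows at Hist3h2a also fell in an exon of Trim17.

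In Hist2, 3 of 9 genes had a promoter window, and they stand side by side. Hist2h2ab had 5 windows, with summits at -492, -72, 570, 901 and 1137 bp. Hist2h2ac had 5, at -564, -173, 63, 394 and 1036 bp. Hist2h2be, the head-to-head partner of the latter, had 4, at -635, -304, -68 and 323 bp. These 3 genes had a window each within 100 bp of the start, and Hist2h2ab and Hist2h2ac were the 2 histone genes with 5 windows. The other 6 genes, Hist2h2aa2, Hist2h2aa1, Hist2h3c1, Hist2h4, Hist2h3b and Hist2h2bb, stand in 1 stretch of 50.4 kb between listed windows and had none. Other protein-coding genes of chromosome 3 had a promoter window in 51.7% of 1036 cases.

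In Hist3, the H2A gene Hist3h2a had 3 windows, with summits at -297, 104 and 440 bp, and the H2B gene Hist3h2ba had none, its nearest summit lying 5477 bp away. Hist4h4, the sole member of Hist4, had 1 window, with its summit 686 bp upstream. Its locus also held 2 windows at the neighbouring variant gene H2afj, which encodes an H2A variant, at -3873 and -4396 bp from the Hist4h4 start.

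**Figure D4:**
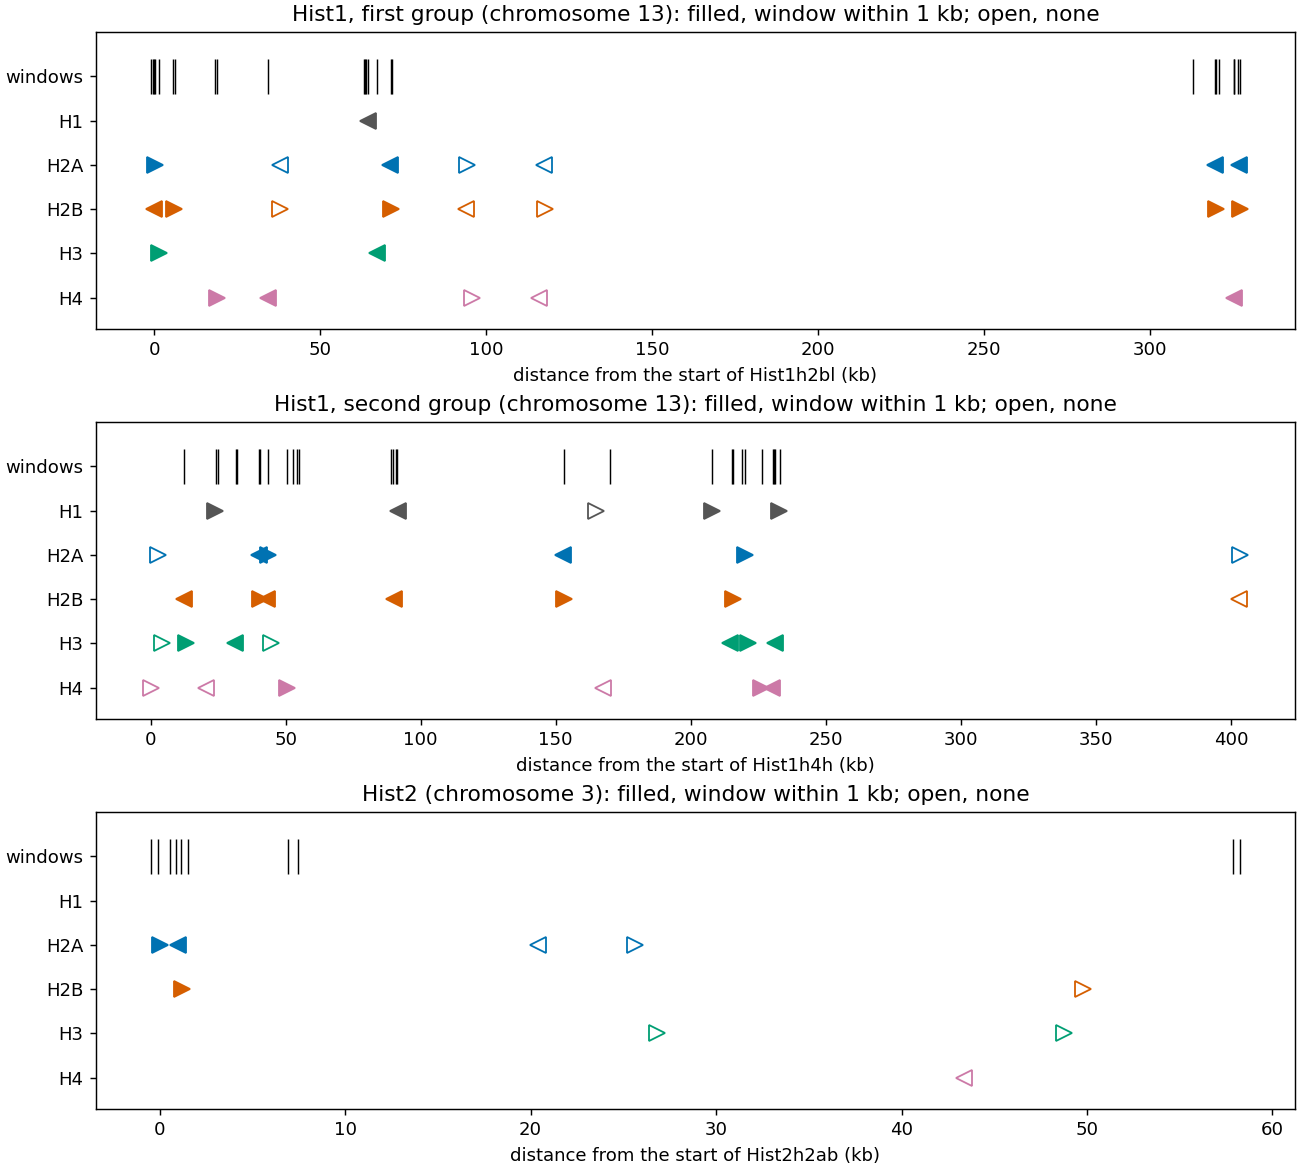
Maps of the main Hist1 groups and of Hist2, in kb from the start of the leftmost histone gene; arrowheads give each gene's start and direction by histone type, filled with a window within 1 kb and open without, and ticks in the top row are summits of the windows within the drawn range that lie in or within 10 kb of a histone gene. Open arrowheads lie in 2 separate sets in the first group, at both ends and at places inside the second, and to the right of the filled ones in Hist2.

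Most of the 25 genes without a window stood next to each other. In the first Hist1 group, Hist1h2bq, Hist1h2ao, Hist1h4m, Hist1h4n, Hist1h2ap and Hist1h2br lay in 1 stretch of 68.0 kb, and Hist1h2ak and Hist1h2bn in another of 28.9 kb. In the second, Hist1h4h, Hist1h2af and Hist1h3g lay in 1 stretch of 25.2 kb at its edge, Hist1h1t and Hist1h4c in 17.0 kb, and Hist1h4f and Hist1h3d in 12.0 and 7.25 kb. The summit nearest to Hist1h3d was 1395 bp away, and it lay at -13 bp from the start of Hist1h2ad, a neighbouring gene. The testis pair Hist1h2ba and Hist1h2aa stood in a stretch of 497 kb without a listed window, and Hist1h2al in one of 474 kb.

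The peak names carry running numbers up to 118153, so calls that ranked below the listed windows leave gaps. Counted from the first to the last listed call, 33 of 52 numbered calls were listed in the first Hist1 group (63.5%). In the second it was 20 of 34 (58.8%), and over chromosome 13 it was 31.3%. Unlisted calls past the outermost listed ones are not in these group counts. In the second group these are the 4 around Hist1h4h, Hist1h2af and Hist1h3g and the 21 around the testis pair. Its share is therefore an upper value. In Hist2 6 of 15 were listed (40.0%), against 39.7% over chromosome 3. Each of the 25 genes without a window had at least 1 unlisted call in the stretch around it, from 1 for Hist1h3d to 21 for the testis pair, with 4 around Hist1h2bq to Hist1h2br and 9 around the 6 Hist2 genes. The positions of unlisted calls are not known, so the absence of a listed window is not an absence of a call. Letters after the number name the summits of a call, and these have gaps too. The listed summits begin at letter b for the call at Hist1h3c and at letter c for that at Hist1h3e.

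The 3 testis genes, Hist1h1t, Hist1h2aa and Hist1h2ba, had no promoter window, against 42 of the other 64 genes (65.6%). Their starts were unique sequence, with 86.3% to 100% of 50-mers occurring once in the genome. Hist1h1t had the lowest CpG ratio of the 67 genes, 0.454, where the ratio compares observed CpG with that given by base composition. The difference from the other genes was not tested.

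Reads that match several places were removed before peaks were called, and some histone genes are near-identical copies. The share of 50-mers within 500 bp of the start that occur once in the genome had a median of 70.7% over the 67 genes. By the study's methods the reads were paired and 75 bases long, and with 75-mers the median was 76.2%. The 50-mer share was 71.6% (42.5% to 100%) in genes with a window and 63.2% (0 to 100%) in those without. Hist1h2be, with 100%, was read at its annotated start, far from its start codon. Hist1h2bq, Hist1h2ao, Hist1h2ap and Hist1h2br had 0% unique 50-mers. The 182 bases between Hist1h2bq and Hist1h2ao, printed above, are identical in all 182 positions to the reverse complement of those between Hist1h2ap and Hist1h2br. Hist1h4m and Hist1h4n were 99.6% identical around their starts and had 5.78% and 4.83% unique 50-mers, and Hist2h3c1 had 5.25%. None of these 7 genes under 10% had a window, against 42 of the other 60 (70.0%). Over the other 18 genes without a window the share ran from 31.5%, at Hist2h2aa1 and Hist2h2aa2, to 100%. Hist2h2bb had 100%, Hist2h4 98.3%, Hist1h4c 84.1% and Hist1h4h 79.7%. The part of uniqueness in the missing windows was not tested.

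**Figure D5:**
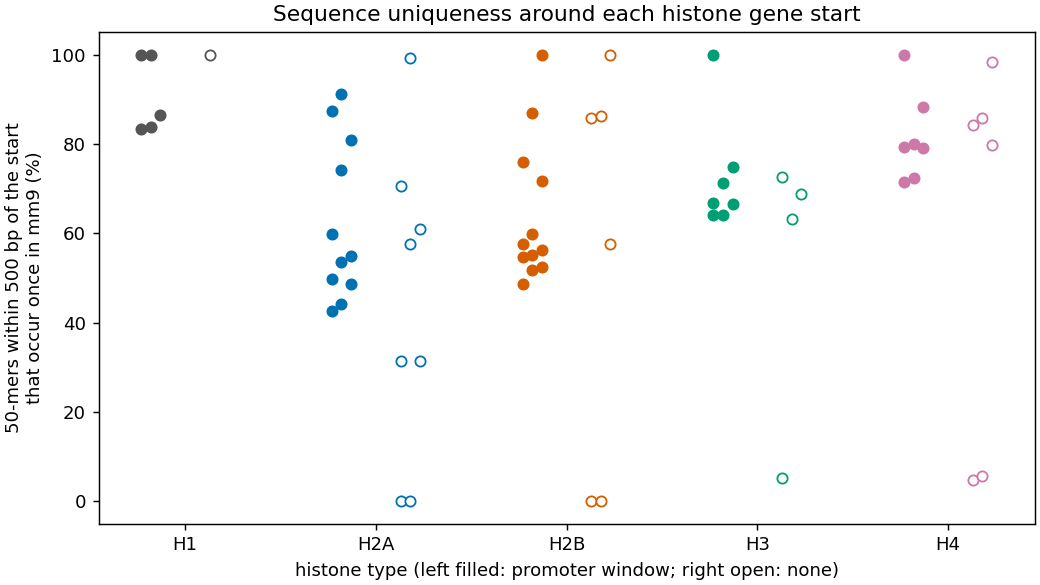
Percent of 50-mers within 500 bp of each histone gene start that occur once in the mm9 genome, by histone type, for genes with a promoter window (filled, left) and without (open, right). All filled points lie above 40%, the 7 genes below 10% are open, and open points also occur up to 100%.

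In the histone genes and 10 kb on either side there were 75 distinct windows, of which 57 lay at histone starts, 3 at promoters of other genes alone and 15 outside all promoters. Of these 15, 9 lay in no annotated gene. A window outside promoters was counted at 26 of the 67 loci (38.8%), against 43.9% of all protein-coding genes, with a mean of 0.642 against 1.15 per gene. Hist1h2be, Hist1h4d and Hist1h3d had 3 each, the same windows, 1 of which lies in the coding sequence of Hist1h2be as described. Among the other types, Hist1h1b and Hist1h1t had 1 each, and Hist1h2ai, Hist1h2ag, Hist1h2bj, Hist1h3h and Hist1h4i had 2 each. The 2 windows beside Hist1h2bl and Hist1h2ai lay 5045 and 5926 bp past the Hist1h2bl start, and the 1 near Hist1h4c lay 2811 bp upstream of it. In Hist2, 2 windows lay 5719 and 6233 bp past the Hist2h2be start and 2 within Hist2h2bb, 8056 and 8450 bp past its start. Loci of all genes differ in length, which sets how many windows they can hold, and this was not adjusted for.

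The words searched from 250 bases before to 50 after the start were spread unevenly over the types. CCAAT was found in 57 histone genes (85.1%) and in 35.9% of all protein-coding genes, being present in all 6 H1, all 19 H2A and all 18 H2B genes, in 10 of 11 H3 and in 4 of 13 H4 genes. TATAAA was found in 37 (55.2%, all genes 13.5%) and TTTNNCGC in 21 (31.3%, all genes 5.80%), the latter in no H3 gene. ATTTGCAT was found in 15 (22.4%, all genes 1.62%), namely in 7 H2A and 8 H2B genes and in none of the others. GGTCCG was found in 15 (22.4%, all genes 10.1%), among them 12 of 13 H4 genes, and AAACACA in 10 (14.9%, all genes 6.64%), among them 5 of 6 H1 genes. GGGCGG was found in 31 (46.3%, all genes 40.9%), from 1 of 11 H3 genes to 10 of 13 H4 genes. A match describes letters in the window and is not a bound site. For Hist1h2be the letters are those around its annotated start beside Hist1h1e, 35.1 kb from its start codon.

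CCAAT stood in 85.7% of the 42 genes with a window and in 84.0% of the 25 without. TATAAA stood in 64.3% and 40.0%, ATTTGCAT in 28.6% and 12.0%, TTTNNCGC in 33.3% and 28.0%, and AAACACA in 19.0% and 8.00%. GGGCGG stood in 42.9% and 52.0%, and GGTCCG in 21.4% and 24.0%. Among divergent pairs, the octamer stood in 5, of which 4 had a window, and was absent from 8, of which 5 had a window. The printed Hist1h2ak-Hist1h2bn and Hist1h2bq-Hist1h2ao stretches hold CCAAT words and no octamer. The CpG ratio within 500 bp of the start had a median of 0.881 with a window and 0.859 without, against 0.473 over all protein-coding genes, and the G and C content was 54.5% and 53.5%. Neighbouring genes share windows and sequence, so these shares were not tested. Hist1h2be enters these values, among the genes with a window, by its distant annotated start.

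The genes that regulate or accompany the clustered histones had windows nearly throughout. Of the 22 factors of histone transcription and 3′ end processing, 22 had a promoter window, against 48.3% of all protein-coding genes. Npat, the organiser of the histone locus body, and Pou2f1, which encodes OCT1, had 4 windows each. Slbp, the stem-loop binding protein, had 2, and Hinfp, which binds the H4 element, had 1. Of the 12 histone chaperones, 12 had a window, with 4 at Hira, 4 at Ssrp1 and 1 at Asf1b. Of the 11 variant histone genes outside the clusters that are protein-coding in this annotation, 9 had a window (81.8%), such as H2afz with 4, H3f3a and H3f3b with 2 each and Cenpa, the centromeric H3, with 1. H2afy2, a macroH2A gene, and H1fx, a linker variant, had none. With the outermost start of each gene alone, 19 factors, 12 chaperones and 7 variants had a window. By that rule the clustered genes stayed at 42, but only 5 of them have several starts, so the rule could change few. The share of all protein-coding genes by that rule was 45.0%. These lists hold genes of separate loci, unlike the clustered genes, and the difference between them was not tested.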

How the data were processed

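The members and gene lists were chosen with earlier results of these data known. By the study's methods, the authors pooled single-cell reads (Bowtie2 2.1.0, mm9; duplicates by Picard 1.79; unique reads kept), called summits with MACS2 (version not given in the sources used here) and kept the 50000 windows of 500 bp with the least q-values. The deposited values were window positions (start and end); read depth was not analysed here.

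Gene models were GENCODE models of mm9, merged by symbol. Windows counted for a promoter if 1 bp or more lay within 1 kb of one of its transcript starts, and a locus was the gene and 10 kb on either side. Sequence words and k-mers were searched exactly on both strands. Stem-loops were searched on the sense strand, as a stem of 6 bases with free middle pairs (G-T allowed) and any loop of 4 bases. Python 3.11.15, numpy 2.4.6 and pandas 2.3.3 were used, and overlap, k-mer and stem-loop searches were tested on simulated data. No test was possible with 1 pooled list. The value of 1 further marker gene is not reported here.

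Genes named were all of Hist2 to Hist4, those without a promoter window, per type in Hist1 the 2 with most promoter and the 2 with most other windows, testis genes and list genes without a window; others named were chosen after their values were seen. Alternatives covered distances, start choice, merged windows, multi-summit calls and k-mer length. Giving each window to its nearest start, and leaving out near-identical genes and Hist1h2be, were added after the data were seen.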

Additional observations from a re-analysis of the deposited data

How the results depend on the processing

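Of 92 alternative values, 80 stayed within the limit set for counts (1.5 times the value reported) and 12 moved past it. Counting windows of multi-summit calls alone gave 24 histone genes, 20 in Hist1 and 0 in Hist4, with 6 H2A, 7 H2B, 4 H3 and 3 H4 genes. The same choice left 7 transcription and 3′ end factors, 5 variants, 3 chaperones and 2901 of all protein-coding genes. With 50 kb on either side, 23 windows lay outside promoters in place of 15. The alternatives added after seeing the data moved the share both ways. Giving each window to its nearest histone start left 36 of 67 genes (53.7%), closer to the 48.3% of all protein-coding genes, which were not recounted by that rule. Leaving out the near-identical genes and Hist1h2be gave 41 of 59 (69.5%). The alternative with better-scoring windows was not run, because the list carries no score. No paired analysis was possible because the list is 1 pooled sample. The rank limit of the list decides which calls appear, and repeated sequence and shared windows limit counts per gene.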

Other observations

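Histone pseudogenes, which were no members, also had windows within 1 kb of a start in the same list. Hist3h2bb-ps, beside Hist3h2a, had 3 windows and Hist1h2aj, beside Hist1h2bm, had 2, in both cases windows shared with the neighbouring gene. Hist2h3c2, in the Hist2 stretch without listed windows, had 0.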
